A study of Homo sapiens with 8 samples.

Results

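The regulators of the integrated stress response examined here are 10 genes, ATF4, DDIT3, ATF3, CEBPB, CHAC1, TRIB3, SESN2, DDIT4, NUPR1 and PPP1R15A, chosen by name and matched by Ensembl identifier among the 60664 genes of the count table. NUPR1 had 0 counts in all 8 libraries and was not measured, so that 9 of the 10 genes are described below, and all 9 passed the expression filter. RNA had been sequenced from A549 cells, a human lung adenocarcinoma line, in 4 groups of 2 libraries: untreated cells, cells given AX-0085 (AX0085 in the sample labels), cells given IFN-γ (interferon gamma), and cells given both. According to the labels, 20 ng of IFN-γ (20 ng/mL in the study's methods) was present for 24 h before AX-0085, a kinase inhibitor. By the same labels AX-0085 was brought to 0.5 μM, and cells were collected after 24 h more. All groups come from the same line and share the same medium, and the study describes duplicates of treated cells without saying whether these were separate cultures, so the p-values measure the spread between these libraries, which may be technical.

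The integrated stress response starts when one of a set of kinases phosphorylates the translation factor eIF2. General translation then falls while the mRNA of the transcription factor ATF4 is translated better. ATF4 and its partners raise genes of amino acid supply, redox balance and, through DDIT3 (the protein CHOP), cell death, and PPP1R15A (GADD34) directs a phosphatase to eIF2 and so closes the loop. Since ATF4 is controlled largely at translation, its mRNA level is not a measure of its protein, and the phosphorylation of eIF2 is not visible in RNA counts.

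Total counts per library lay between 20672828 and 29978251. A gene with 3 counts, used as the floor, stood at 0.100 to 0.145 CPM, the count scaled to a fixed library size. Such limits cover counting error only. Levels below are CPM on library sizes scaled with TMM factors. Mitochondrial genes took 1.71% and 1.82% of the counts in the IFN-γ libraries and between 2.72% and 5.73% in the other 6. The epithelial markers EPCAM, CDH1, KRT7, KRT8, KRT18 and KRT19 summed to 8820 to 9550 CPM in untreated cells, 5760 to 6090 under AX-0085, 6510 to 7400 under IFN-γ and 7220 to 7300 under both, and 5 of the 6 were called lower with IFN-γ by the rule given below, as were 17.2% of all genes tested. Among markers of blood, endothelial and stromal cells, CD3E and CD68 were at 0 in all libraries. CD68 shares 85.6% of its exon bases with other annotated genes, so its 0 cannot be read as absence. The markers other than COL1A1 summed to at most 1.08 CPM in any library, and with COL1A1 the sums were 9.73 to 11.6 CPM in untreated cells, 10.2 to 10.5 under AX-0085, 3.01 to 4.75 under IFN-γ and 7.35 to 8.68 under both. The part of the mitochondrial share and of the epithelial markers in the results below was not tested.

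A count of 0 could not be read as absence in this table. Of the 121 genes in the lists used here other than the cell markers, 13 had 0 counts everywhere, among them JUNB, DUSP1 and ASNS, which many cultured cells express. In the GENCODE 44 annotation of GRCh38, NUPR1 (chromosome 16, 28532708 to 28539008, minus strand) shares 16.5% of its exon bases with a neighbouring gene. DDIT3 (chromosome 12, 57516588 to 57521737, minus strand) shares 39.6% of them with MARS1, MBD6 or a gene without a name, and its counts were low, between 11 and 126 per library, so that its level is uncertain. CEBPB (chromosome 20, 50190830 to 50192668, plus strand) shares 12.6% with its antisense gene CEBPB-AS1, and the strand setting of the counting is not given in the sources used here. The other 7 genes overlap no annotated exon of another gene. They are ATF4 (chromosome 22, 39519695 to 39522683), ATF3 (chromosome 1, 212565334 to 212620777), CHAC1 (chromosome 15, 40952962 to 40956512), TRIB3 (chromosome 20, 362835 to 397559), SESN2 (chromosome 1, 28259518 to 28282491), DDIT4 (chromosome 10, 72273919 to 72276036) and PPP1R15A (chromosome 19, 48872212 to 48876059), all on the plus strand.

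The transcription factors were read first. ATF4, the bZIP factor at the centre of the response, stood at 364 and 383 CPM in untreated cells, 796 and 757.5 under AX-0085, 915 and 814.5 under IFN-γ, and 679.9 and 674 under both. All 6 treated libraries lay above the untreated pair, and the IFN-γ pair was the highest. DDIT3, the ATF4-induced factor tied to cell death, had 19 and 11 counts in untreated cells, 29 and 28 under AX-0085, 118 and 126 under IFN-γ, and 70 and 74 under both, so that no group overlapped another in counts. ATF3, a bZIP factor induced by many stresses, stood at 5.63 and 5.87 CPM untreated, 9.40 and 7.83 under AX-0085, 150.7 and 146.3 under IFN-γ, and 19.5 and 18.6 under both. The IFN-γ libraries stood far above the other 6. CEBPB, a C/EBP factor that pairs with ATF4 and also serves inflammatory signaling, stood at 42.6 and 70.1 CPM in untreated cells, a wider gap than within any other group, and at 61.5 and 55.7 under AX-0085, 265.7 and 263.5 under IFN-γ, and 124 and 129.3 under both. The untreated and AX-0085 pairs of CEBPB overlapped.

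The effectors followed. CHAC1, an enzyme that degrades glutathione, stood at 4.83 and 5.50 CPM untreated, 33.8 and 29.8 under AX-0085, 94.3 and 83.4 under IFN-γ, and 65.7 and 68.7 under both. TRIB3, a pseudokinase that binds AKT and dampens ATF4 activity, stood at 79.0 and 90.5, then 207.8 and 191.5, 1031 and 951.9, and 497.9 and 479 CPM in the same order of groups. For both genes the groups stood in the order untreated, AX-0085, both treatments, IFN-γ, without overlap. SESN2, which restrains mTORC1 when leucine is scarce, stood at 10.3 and 10.8 CPM untreated, 32.4 and 31.4 under AX-0085, 293.7 and 284.6 under IFN-γ, and 77.1 and 75.7 under both. DDIT4 (REDD1), which inhibits mTORC1 through the TSC complex, stood at 269.8 and 303.2, then 636.9 and 582.8, 1261 and 1278, and 1069 and 1030.0 CPM. SESN2 and DDIT4 had the same order of groups as CHAC1 and TRIB3. PPP1R15A stood at 47.0 and 49.6 CPM untreated, 43.2 and 41.1 under AX-0085, 430.1 and 417.5 under IFN-γ, and 57.1 and 54.0 under both, so that only its IFN-γ pair stood far from the rest.

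**Figure D1:**
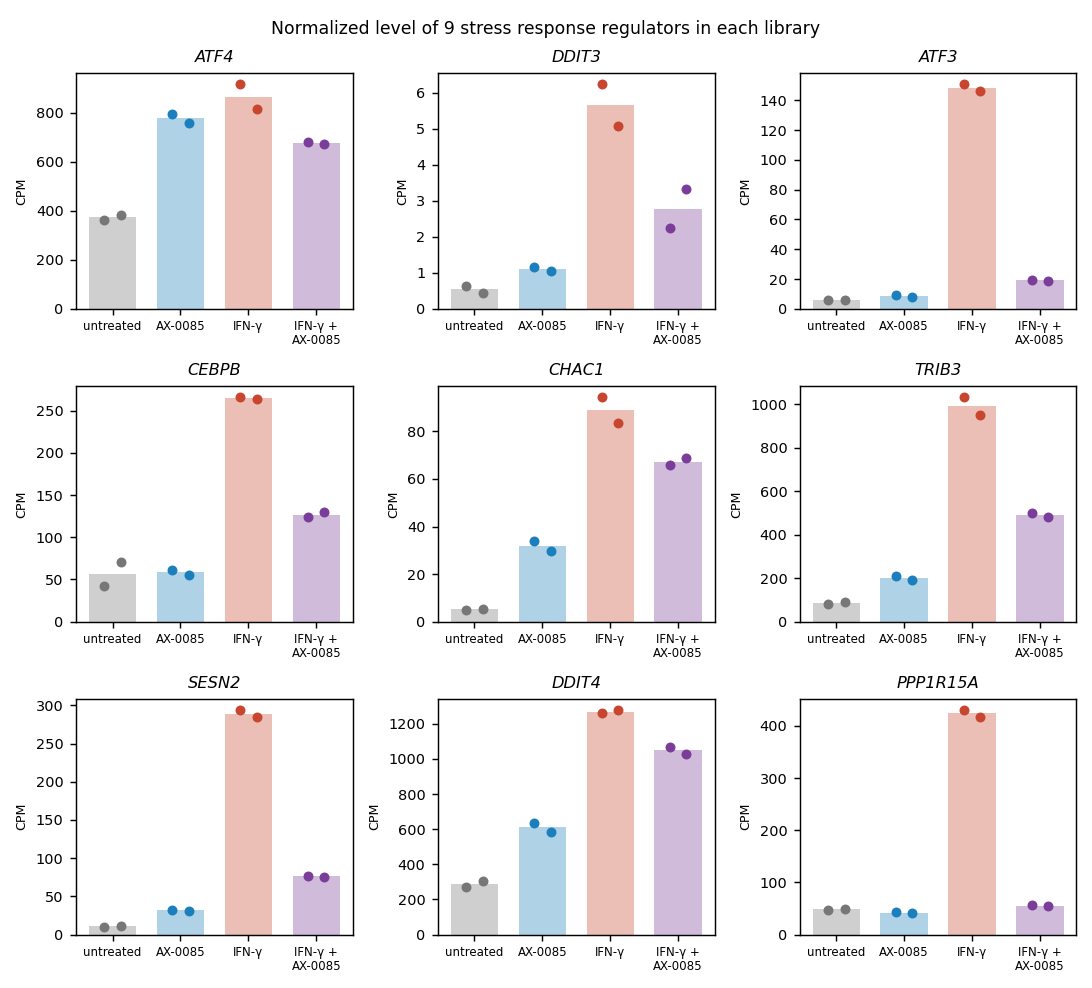
Level of each of the 9 measured regulators, as CPM on TMM-scaled library sizes (vertical axis, from 0), in the 4 groups. Bars are means of 2 libraries and points are the libraries. The IFN-γ bar is the tallest in all 9 panels, while the bar for both treatments ranges from close to it (DDIT4, 1049 against 1269 CPM) to close to untreated cells (PPP1R15A, 55.6 against 48.3 CPM).

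Levels of different genes were set roughly side by side per kilobase of annotated exon. The length counts every annotated exon of a gene, whether or not A549 cells use it, so close orders are uncertain. On this scale ATF4 (143 CPM per kb) and DDIT4 (135) led in untreated cells, ahead of CEBPB (30.7), TRIB3 (25.7) and PPP1R15A (14.1). SESN2, CHAC1 and ATF3 lay at 3.05, 2.52 and 1.44 CPM per kb, and DDIT3 at 0.412, a level that is uncertain given its overlaps. With IFN-γ the order was DDIT4 (599), ATF4 (331), TRIB3 (301), CEBPB (144), PPP1R15A (124), SESN2 (83.5), CHAC1 (43.3), ATF3 (37.1) and DDIT3 (4.32). Neighbours in these orders were not tested against each other.

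IFN-γ against untreated cells was compared first, the comparison which asks what the cytokine alone does. All 9 measured regulators rose with IFN-γ, from 2.32-fold for ATF4 to 27.4-fold for SESN2. A gene is called here where the Benjamini-Hochberg-adjusted p over all 15066 genes tested is under 0.05 and the fold change over 2. By this rule, 10.3% of all genes tested were called higher with IFN-γ. The 2 libraries of each group did not overlap in any of the 9 genes, and 37.8% of all genes tested were higher without overlap. The median log2 fold change of the 9 was 3.35, beside -0.06 over all genes tested.

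Among the transcription factors, ATF4 rose least, at 1.21 on the log2 scale (standard error, SE, 0.07, adjusted p by edgeR's quasi-likelihood fit 4.952e-09). CEBPB rose by 2.24 (95% interval 1.91 to 2.57) and DDIT3 by 3.35 (2.77 to 3.93). ATF3 rose by 4.69 (SE 0.10, adjusted p by edgeR's quasi-likelihood fit 5.996e-13), a change whose interval of 4.48 to 4.90 overlaps that of SESN2 only. Among the effectors, SESN2 rose by 4.78 (4.63 to 4.93), CHAC1 by 4.11 (3.87 to 4.34), TRIB3 by 3.55 (3.37 to 3.73), PPP1R15A by 3.13 (3.001 to 3.27) and DDIT4 by 2.15 (1.99 to 2.31). In linear terms these are 27.4-fold, 17.2-fold, 11.7-fold, 8.78-fold and 4.43-fold. The mRNAs of 7 of the other regulators thus changed by more than that of ATF4 itself with no overlap of the 95% intervals, and the same holds for DDIT3 despite its low counts. With each library left out in turn all 9 calls held, and the largest move was that of CEBPB, which changed by 1.96 to 2.64.

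AX-0085 alone also raised part of the set. Against untreated cells 6 of the 9 regulators were called higher (6.41% of all genes tested were), and the median log2 fold change of the 9 was 1.06 beside 0.01 over all genes. CHAC1 rose most, by 2.63 on the log2 scale or 6.18-fold (SE 0.11, adjusted p by edgeR's quasi-likelihood fit 1.667e-09). SESN2 rose by 1.60 (95% interval 1.44 to 1.75), TRIB3 by 1.24 (1.07 to 1.404), DDIT4 by 1.09 (0.93 to 1.25) and ATF4 by 1.06 (0.91 to 1.21). These 5 genes were higher in both AX-0085 libraries than in both untreated ones, as were 38.8% of all genes tested.

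The other 4 regulators responded less or less clearly to AX-0085 alone. DDIT3 was called at a log2 fold change of 1.01, with an interval of 0.24 to 1.77 (adjusted p by edgeR's quasi-likelihood fit 0.02843). That call did not hold without untreated replicate 2 (0.80), without AX-0085 replicate 1 (0.94) or without AX-0085 replicate 2 (1.07), where the adjusted p was 0.1372, 0.1039 and 0.06665, and without untreated replicate 1 the value was 1.30. ATF3 had a log2 fold change of 0.58 (0.34 to 0.82) and PPP1R15A of -0.20 (-0.33 to -0.06), both under the fold limit with adjusted p of 0.0006498 and 0.01753 in the edgeR test. CEBPB had a value of 0.06 with an interval of -0.27 to 0.40, and its sign turned without untreated replicate 1 (-0.25) or without AX-0085 replicate 1 (-0.01) and its value was 0.46 without untreated replicate 2.

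**Figure D2:**
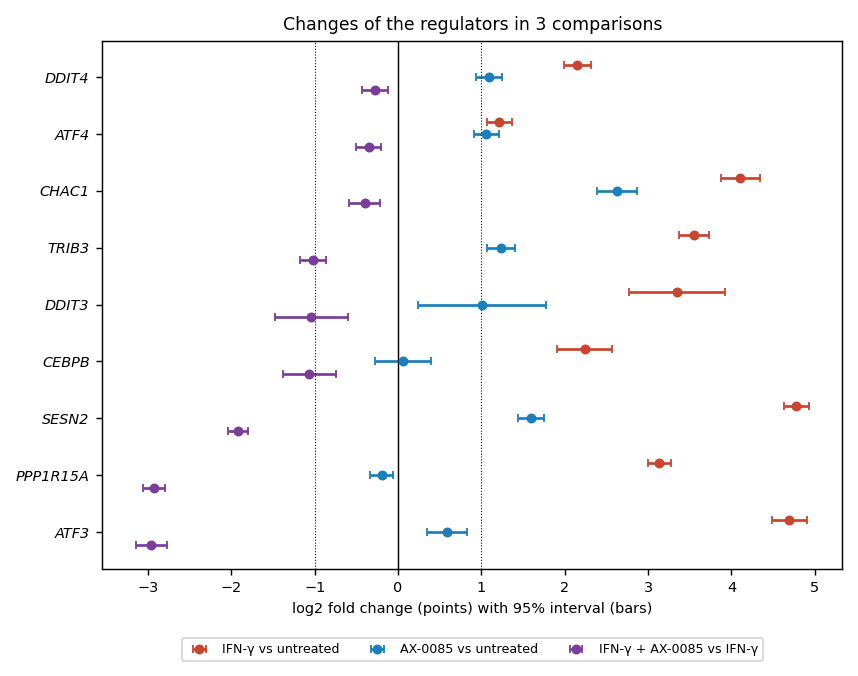
Log2 fold change (horizontal axis, points) with 95% interval (bars) of the 9 regulators for IFN-γ against untreated cells, AX-0085 against untreated cells, and both treatments against IFN-γ. Dotted lines mark a 2-fold change. The IFN-γ points all lie right of 1, while those for both treatments against IFN-γ all lie left of 0 and spread from -0.27 (DDIT4) to -2.96 (ATF3).

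Both treatments were then set against IFN-γ alone, where the question is how far each level under IFN-γ differed once AX-0085 was present. All 9 regulators had lower levels than with IFN-γ alone, without overlap between the pairs of libraries (40.0% of all genes tested were lower in that way). Only 6 were called lower, beside 8.28% of all genes tested. The median log2 fold change was -1.04, beside 0.03 over all genes.

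The fall was largest for ATF3 and PPP1R15A. ATF3 changed by -2.96 on the log2 scale, which is 7.79-fold lower (SE 0.09, adjusted p by edgeR's quasi-likelihood fit 1.265e-11), and PPP1R15A by -2.93, or 7.62-fold lower (SE 0.06, adjusted p by edgeR's quasi-likelihood fit 1.195e-12). SESN2 was 3.78-fold lower, with a log2 fold change of -1.92 (95% interval -2.04 to -1.80). CEBPB, DDIT3 and TRIB3 sat near the fold limit, at -1.06 (-1.38 to -0.75), -1.04 (-1.48 to -0.60) and -1.02 (-1.18 to -0.86). The DDIT3 call was lost without IFN-γ replicate 1 (-0.90) and without replicate 1 of both treatments (-0.76), and that of TRIB3 without IFN-γ replicate 1 (-0.97) and without replicate 2 of both treatments (-0.995). All 3 also fell under the fold limit when libraries were scaled by size alone, at -0.94, -0.92 and -0.90 for CEBPB, DDIT3 and TRIB3.

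CHAC1, ATF4 and DDIT4 had the smallest differences, with log2 fold changes of -0.40 (95% interval -0.59 to -0.22), -0.35 (-0.50 to -0.21) and -0.27 (-0.43 to -0.12). Their adjusted p in the edgeR quasi-likelihood test was 0.001037, 0.0004916 and 0.004108, and none of the 3 passed the fold limit. With libraries scaled by size alone the ATF4 value was -0.23 and that of DDIT4 -0.15, where the adjusted p of DDIT4 was 0.07515 in the same test. Their intervals do not overlap those of ATF3, PPP1R15A or SESN2. Of the 5 genes whose rise with AX-0085 alone held with each library left out, CHAC1, ATF4 and DDIT4 were not called here, whereas SESN2 and TRIB3 were called lower. ATF3, PPP1R15A and CEBPB, not called with AX-0085 alone, were called lower as well.

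**Figure D3:**
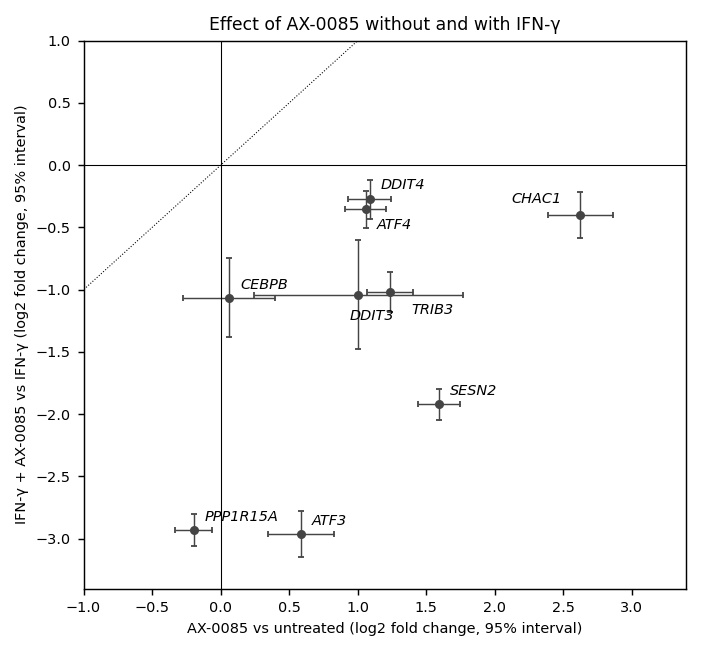
Log2 fold change of each of the 9 regulators with AX-0085 against untreated cells (horizontal axis) and under both treatments against IFN-γ alone (vertical axis), with 95% intervals; the dotted line marks equal effects. All 9 points lie below the dotted line, with CHAC1 at the right (2.63 and -0.40) and PPP1R15A and ATF3 at the bottom (-0.20 and -2.93, 0.58 and -2.96).

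The levels left under both treatments were set against the untreated and the AX-0085 groups. Against untreated cells 7 of the 9 regulators were called higher (7.51% of all genes tested were), led by CHAC1 with a log2 fold change of 3.71 (95% interval 3.47 to 3.94), SESN2 with 2.86 (2.71 to 3.01) and TRIB3 with 2.53 (2.36 to 2.699). DDIT3, DDIT4 and ATF3 were higher by 2.31, 1.87 and 1.73. CEBPB was higher by 1.17, but by 0.89 and under the fold limit without untreated replicate 1. ATF4 had a value of 0.86 (0.71 to 1.01) and PPP1R15A of 0.20 (0.07 to 0.34), with adjusted p of 2.802e-07 and 0.01191 in the edgeR test and neither past the fold limit.

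Against AX-0085 alone, a comparison of inhibitor-treated cells with and without the earlier IFN-γ, 6 of the 9 were called higher, where only 1.79% of all genes tested were. TRIB3, DDIT3, SESN2, ATF3, CEBPB and CHAC1 were higher by 1.29, 1.30, 1.26, 1.15, 1.11 and 1.08 on the log2 scale. The 95% intervals of these 6 overlap one another, whereas with IFN-γ against untreated cells those of CEBPB and CHAC1, or of TRIB3 and SESN2, do not. CHAC1 fell just under the fold limit without AX-0085 replicate 2 (0.99). DDIT4 had 0.78 (0.63 to 0.94) and PPP1R15A 0.40 (0.27 to 0.54). ATF4 had -0.20 (-0.35 to -0.05, adjusted p by edgeR's quasi-likelihood fit 0.03813), the only regulator lower with both than with AX-0085 alone. Under the other scalings, filters and fits the ATF4 value ran from -0.21 to -0.18, but its adjusted p was not under 0.05 in all of them. These comparisons share libraries with those above and are not independent of them.

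The difference between the effect of AX-0085 with and without IFN-γ was tested as an interaction. It was negative and called for all 9 regulators, where 6.46% of all genes tested were called in that direction. The median was -2.26 beside 0.05 over all genes. The term also equals the IFN-γ change with AX-0085 minus the IFN-γ change without it. All 9 had been called higher with IFN-γ, which favours a negative term, so the share over all genes is not a like background. The term was largest for ATF3, at -3.55 (SE 0.14, adjusted p by edgeR's quasi-likelihood fit 1.429e-09), SESN2, at -3.52 (95% interval -3.71 to -3.32), and CHAC1, at -3.03 (-3.33 to -2.72). PPP1R15A followed with -2.73 (-2.92 to -2.55). The parts of the term differed between these genes. For ATF3 it was made of -2.96 with IFN-γ present and 0.58 without, for PPP1R15A of -2.93 and -0.20, and for CHAC1 of -0.40 and 2.63. TRIB3 had -2.26, DDIT3 -2.05, ATF4 -1.41, DDIT4 -1.36 and CEBPB -1.13. The term for CEBPB was -0.82 and under the fold limit without untreated replicate 1. Read the other way, the combined level of every regulator was below what adding the separate log2 changes gives. For ATF4 the separate changes of 1.21 and 1.06 sum to 2.27, and the combined change was 0.86.

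The 9 regulators fell along a range rather than moving as a block. Pearson's r of log2 CPM between pairs of regulators over the 8 libraries, which come from only 4 groups, ran from 0.51 (ATF4 and PPP1R15A) to 0.99 (TRIB3 and SESN2). CHAC1 ran closest to DDIT4 (0.99), and ATF3 to CEBPB (0.96), SESN2 (0.96) and PPP1R15A (0.96). PPP1R15A with CHAC1 gave 0.56. Of the 10131 genes whose mean log2 CPM reached 2, those whose levels ran most like ATF4 were COPB1 (r = 0.996), a subunit of the COPI vesicle coat, XBP1 (0.995), the factor spliced in the unfolded protein response, and MRPL10 (0.99), a mitochondrial ribosomal protein. Those most like DDIT3 were ANK2, PCBD2 and FAM86B2 (0.99 each), of which FAM86B2 belongs to a family of near-identical copies and is uncertain. Since the libraries form 4 pairs, such values reflect little more than the order and spacing of 4 group levels.

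Other genes of the pathway were read from lists written from general knowledge, with the earlier results of these data known. A list of 33 further targets of ATF4 and CHOP had 29 tested genes, of which 22 were called higher with IFN-γ, where 10.3% of all genes tested were called higher and 17.2% lower, with a median log2 fold change of 1.63. The largest were INHBE, an activin subunit, at 4.78 (13 and 12 counts untreated, 247 and 309 with IFN-γ), and WARS1, a tRNA synthetase also induced directly by interferon, at 4.72. With AX-0085 alone (6.41% of all genes higher, 5.62% lower) 6 were called higher, led by INHBE (2.47) and ADM2 (2.34), a peptide hormone, with a median of 0.37. With both treatments against IFN-γ alone (8.28% of all genes lower, 16.5% higher) 8 of the 29 were called lower and 1 higher, with a median of -0.47. WARS1 (-2.695) and GDF15 (-2.23), a stress cytokine, fell most. CTH, which makes cysteine, rose by 1.43. The interaction was called negative for 17 of the 29, beside 6.46% of all genes tested. That share is not a like background either, since most of the 29 had been called higher with IFN-γ.

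Of 18 genes of the eIF2 machinery, 16 were tested, with a median of 0.24 with IFN-γ. EIF2S2 and EIF2S1, which encode subunits of eIF2, were the only genes called, higher by 1.14 and 1.05 (10.3% of all genes higher, 17.2% lower). With both treatments against IFN-γ alone (8.28% of all genes lower, 16.5% higher) only EIF2S1 was called, lower at -1.27. The kinase genes EIF2AK1 (HRI), EIF2AK2 (PKR), EIF2AK3 (PERK) and EIF2AK4 (GCN2) had values of -0.32, 0.67, 0.23 and 0.21 with IFN-γ, and of -0.06, 0.11, 0.36 and 0.03 with AX-0085 alone, within the fold limit in each case. With AX-0085 alone (6.41% of all genes higher) only DELE1, which carries the mitochondrial stress signal to HRI, was called, higher by 1.03. PPP1R15B, the constitutive counterpart of PPP1R15A, had 0 counts throughout.

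Of 21 chaperones and regulators of the ATF6 and XBP1 branches, 5 were called higher and 3 lower with IFN-γ, and the median was 0.14. Over all genes tested 10.3% were called higher and 17.2% lower, so the share called lower was near that of all genes. ERN1 (IRE1) rose by 2.81 and DNAJB9 by 1.66, whereas CALR changed by -2.0 and SDF2L1 by -1.97. With AX-0085 alone (6.41% of all genes higher, 5.62% lower) the 2 called genes, both higher, were ERN1 (1.37) and XBP1 (1.24). With both treatments against IFN-γ alone, ERN1 (-1.13) and HSPA5 (-1.02), the chaperone BiP, were called lower and CRELD2 (1.20) was called higher. Over all genes tested 8.28% were called lower there, a share near that of this list, and 16.5% higher. HSPA5 stood at 941 and 993 CPM untreated, 2746 and 2581 under IFN-γ, and 1319 and 1315 under both, still above untreated cells.

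Of 16 bZIP factors that can pair with the regulators, 12 were tested. With IFN-γ (10.3% of all genes higher, 17.2% lower) 5 were called higher and 1 lower. JUN (2.52) and CEBPG (2.27), a partner of ATF4, rose most, and FOS was the gene called lower (-1.61). Upon addition of AX-0085 (8.28% of all genes lower, 16.5% higher) 2 were called lower, JUN (-3.08) and FOSL2 (-1.54). FOS (2.58) and JUND (1.03) were called higher, a share near that of all genes. With AX-0085 alone (6.41% of all genes higher, 5.62% lower) FOS was the only gene of this list called, higher by 1.21. JUN thus shared with ATF3 and PPP1R15A a rise with IFN-γ and a fall of about 3 log2 units upon addition of AX-0085. With AX-0085 alone none of them was called, but their directions differed. JUN had -0.92 (95% interval -1.13 to -0.71), PPP1R15A -0.20 and ATF3 0.58 (0.34 to 0.82).

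Among 13 regulators of mTORC1 other than SESN2 and DDIT4, 9 were tested, and their log2 fold changes with IFN-γ lay between -0.85 and 0.57, short of the fold limit throughout. DEPTOR, an inhibitor bound to mTOR, was called higher with AX-0085 alone (1.94) and upon its addition to IFN-γ (1.86), where TSC2 was also called higher (1.29). Over all genes tested 6.41% and 16.5% were called higher in these comparisons. Of 13 immediate early genes, 8 were tested. With IFN-γ (10.3% of all genes higher, 17.2% lower) 6 were called higher, led by JUN and MYC (2.03), and 1 lower. Upon addition of AX-0085 (8.28% of all genes lower, 16.5% higher) 5 were called lower, led by IER3 (-3.39) and JUN, and FOS and NR4A1 (1.61) were called higher. With AX-0085 alone (5.62% of all genes lower) IER3 was called lower, at -1.395.

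**Figure D4:**
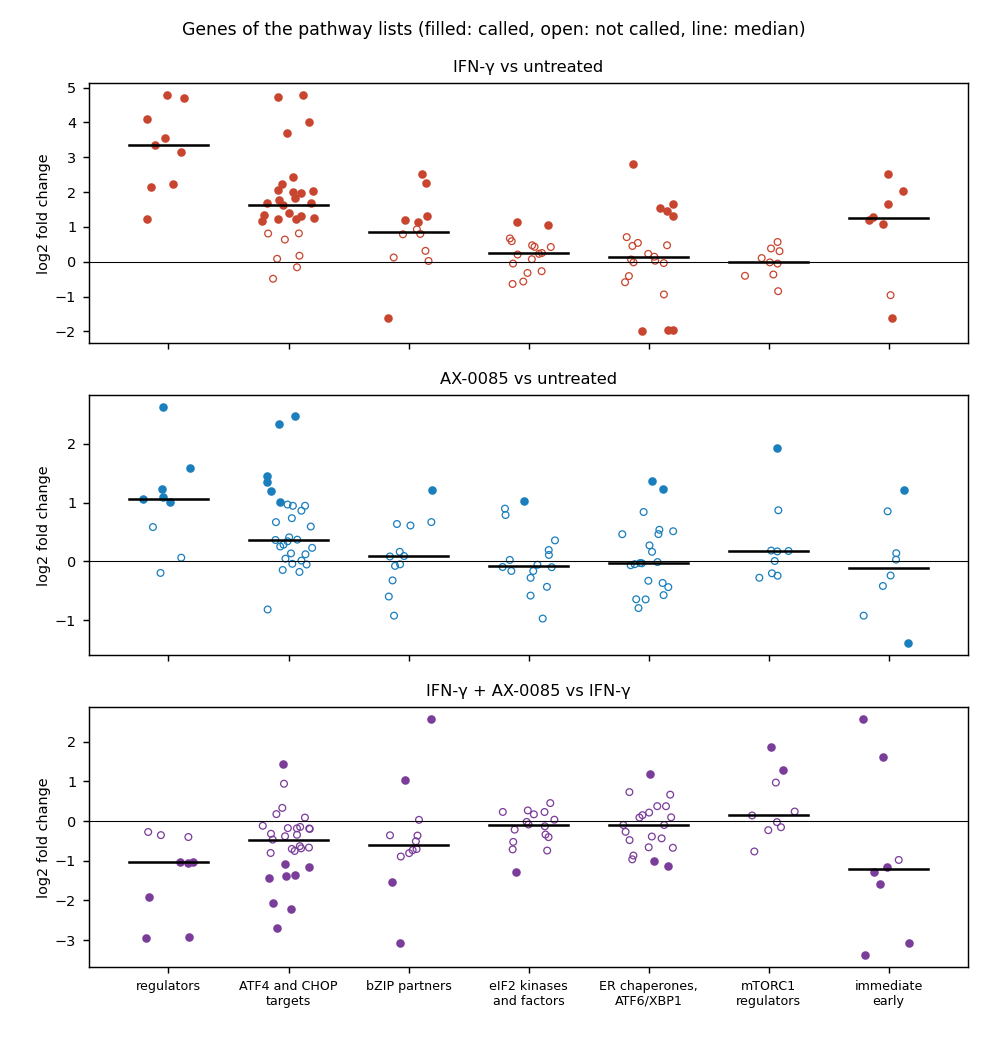
Log2 fold change (vertical axes) of every tested gene of the 7 lists (horizontal axis) for IFN-γ against untreated cells, AX-0085 against untreated cells, and both treatments against IFN-γ alone; filled points were called, open points were not, and lines are medians. The regulators and the ATF4 and CHOP targets lie mostly above 0 with IFN-γ (medians 3.35 and 1.63), while the eIF2 list centres near 0 (median 0.24).

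Windows before the RefSeq starts of the regulators were searched for 3 sets of letters on both strands. The reason is that genes that rise with ATF4 often carry a C/EBP-ATF element. Promoters of 250 bases before the RefSeq start (GRCh38.p14) were found for 9 of the 10 genes, NUPR1 being the one without an entry. The letters TGATGNAA, a form of that element, occurred in ATF3 and CHAC1, 2 of the 9, and in 3.14% of 35116 promoters of the same length. The cyclic AMP response element TGACGTCA occurred in PPP1R15A, 1 of the 9, and in 1.65% of all. The consensus endoplasmic reticulum stress element occurred in 0.074% of all promoters and was not found in these windows. The 3 matches shown are all that were found. The log2 rise over untreated cells under both treatments was 90.2% of that with IFN-γ for CHAC1, 36.9% for ATF3 and 6.53% for PPP1R15A. These shares include any change from AX-0085 itself, which alone changed CHAC1 by 2.63, ATF3 by 0.58 and PPP1R15A by -0.20 on the log2 scale. They are therefore not the part of the IFN-γ response that AX-0085 left in place. A link between a match and these changes was not tested. The stretches below run 30 bases from 5′ to 3′ on the plus strand, which is the strand of each gene, and capitals mark the match. That of ATF3 (chr1:212565205-212565234) lies 191 to 184 bases before the RefSeq start, that of CHAC1 (chr15:40953251-40953280) 209 to 202 bases before it and in reverse orientation, and that of PPP1R15A (chr19:48872352-48872381) 58 to 51 bases before it.
ATF3: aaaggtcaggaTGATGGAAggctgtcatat
CHAC1: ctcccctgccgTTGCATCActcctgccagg
PPP1R15A: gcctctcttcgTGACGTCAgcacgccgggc
A match of letters is not a binding site, binding was not measured here, and elements outside these windows or with other letters were not searched.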

How the data were processed

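Per the labels and the study's methods, the authors made stranded mRNA libraries, trimmed paired-end reads (Trim Galore 0.6.7), aligned them to GRCh38 (STAR 2.7.9a), ran featureCounts (Rsubread 2.6.4) and deposited raw counts without normalization. The annotation release, strand setting and handling of multi-mapped reads are not given in the sources used here.

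All 8 libraries entered 1 model of the 4 groups in edgeR 4.0.16 (R 4.3.3; filterByExpr, TMM factors between 0.916 and 1.04, glmQLFit, glmQLFTest), without covariates, and p-values were Benjamini-Hochberg-adjusted over all genes tested. The standard error is the log2 fold change over the root of the F statistic, and 95% intervals use its degrees of freedom. Single libraries' log2 CPM used a prior count of 0.125. Exact permutation of 2 against 2 libraries gives a two-sided p of 0.333 at best and was not used. The members and lists were chosen with earlier results of these data known, and positions come from GENCODE 44. The rule for naming was all 10 members, up to 2 called genes in each direction per list (mean log2 CPM of at least 2) in the first 3 comparisons, and the 3 genes most like ATF4 and DDIT3. Others named, such as the eIF2 kinases, were chosen as parts of the pathway or after their values were seen. Duplicates differed beyond counting error (chi-square over its degrees of freedom 8.55 to 27.7). The procedure was tested on simulated data. Alternatives included DESeq2 1.42.0, other scalings and filters, a replicate block and leaving out each library. One cell marker is not reported here.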

Additional observations from a re-analysis of the deposited data

Results flagged for a closer look

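For 9 regulators the effect of AX-0085 differed between cells with and without IFN-γ, by the interaction term of the edgeR quasi-likelihood test. On the log2 scale, the effect with IFN-γ minus that without was -1.41 for ATF4, -2.05 for DDIT3, -3.55 for ATF3 and -1.13 for CEBPB. It was -3.03 for CHAC1, -2.26 for TRIB3, -3.52 for SESN2, -1.36 for DDIT4 and -2.73 for PPP1R15A.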

How the results depend on the processing

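Of the log2 fold changes of the 9 regulators in 6 comparisons, 826 of the values under the alternatives kept their direction and side of the thresholds, 17 lost the call, 10 gained it and 2 turned sign, both for CEBPB with AX-0085 alone (-0.25 without untreated replicate 1, -0.01 without AX-0085 replicate 1, and at most 0.46 with any library left out). All 10 gains came with the adjusted p alone. That setting called 10259 genes with IFN-γ, 10019 with AX-0085 added to IFN-γ, 8028 with AX-0085 alone, 5228 for both against AX-0085, 8573 for both against untreated and 7577 for the interaction, against 4137, 3733, 1812, 530, 2222 and 2800, and called 1 regulator lower with AX-0085 alone (PPP1R15A) and 1 lower with both than with AX-0085 (ATF4). At least 10 counts in every library left 2403, 1089, 245 and 1385 calls for AX-0085 added to IFN-γ, AX-0085 alone, both against AX-0085 and both against untreated, since fewer genes were tested, and DESeq2 called 314 for both against AX-0085. DDIT3 (-0.99) and TRIB3 (-0.97) lost their call upon addition of AX-0085 under that filter, and DDIT3 with AX-0085 alone without a filter (0.99) or with only the groups compared (1.00). Scaling by library size alone moved the median of all genes by -0.12 for IFN-γ against untreated and 0.12 for both against IFN-γ, and left 3 regulators called lower there in place of 6. With each library left out in turn, between 4 and 6 regulators were called lower for both against IFN-γ, 5 and 6 higher with AX-0085 alone, 5 and 6 higher with both than with AX-0085, 6 and 7 higher with both than untreated, and 8 and 9 lower in the interaction. A group left with 1 library is assumed to vary like the others. Same-numbered libraries also share a letter in the sample descriptions, A for replicate 1 and B for replicate 2, whose meaning is not stated. Their deviations from group means correlated between -0.07 and 0.04 over all genes tested. Such values cannot show whether single genes share a replicate effect. The replicate block changed 0 calls of the regulators and gave 4098 calls in all with IFN-γ and 3693 upon addition of AX-0085. DDIT3 had the lowest counts of the 9 regulators, with 11 in its lowest library, and whether depth or its exon overlaps account for this was not tested.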

Other observations

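The genes that ran most like the other regulators over the 8 libraries, chosen after their values were seen, also differed along the range described. They are given as descriptions over 4 pairs of libraries, with r between 0.99 and 1.00. For ATF3 they were NMI, TRIM56 and UBE2L6, all known to be induced by interferon, and 700 of the 10131 genes had an r over 0.95 with it. For PPP1R15A they were TRIB1, SRGN and DENND5A, and 733 genes had an r over 0.95. For CHAC1 they were ADM2, ZNF496 and SARS1, the last a cytosolic tRNA synthetase, with 199 genes over 0.95. For DDIT4 they were AKTIP, SLC6A9, a glycine transporter, and AARS1, another tRNA synthetase, with 227 genes. For SESN2 they were ARHGEF2, MTHFD2, an enzyme of mitochondrial folate metabolism, and CEBPG. For TRIB3 they were ZBTB7B, NFIL3 and H1-2, and for CEBPB they were FBRS, ASCC2 and KRT10. ATF4 had the fewest close companions, with 74 genes over 0.95.

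FOS and EGR1 were higher in replicate 1 than in replicate 2 in all 4 groups. FOS stood at 7.84 and 7.13 CPM untreated, 22.7 and 12.2 under AX-0085, 2.85 and 2.13 under IFN-γ, and 17.8 and 11.01 under both treatments. EGR1 stood at 6.49 and 3.99, 13.3 and 6.02, 16.4 and 10.01, and 9.27 and 3.37 CPM in the same order. The duplicates of FOS thus lay closer in the groups without AX-0085.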
